A study of Mus musculus with 8 samples.

Results

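The proteasome genes described here were the gene symbols of the count table that start with Psma to Psmg followed by a digit, without Psmb8, Psmb9 and Psmb10, the inducible catalytic subunits. The pattern matched 48 of 22244 genes. Of these, 46 encode subunits, activators, an inhibitor or assembly factors of the proteasome. The other 2, Psmc3ip, a meiotic recombination factor, and Psme3ip1, which encodes a protein that binds Psme3, are named after a proteasome gene but are not part of the particle, and were kept outside the classes. The set was proposed with results of the naphthalene and control comparison known, so every count and adjusted p of its members below is a description of these libraries and not independent evidence of a direction.

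RNA was measured in the right cranial lobe of lungs from adult wild-type male C57BL/6J mice that had been injected with naphthalene (4 libraries) or had received no treatment (4 control libraries). Naphthalene, a hydrocarbon of coal tar, is made toxic by P450 enzymes in club cells and serves as an agent of airway injury. No source used here states its dose, its vehicle or the sampling time, so an effect of the injection cannot be told apart from that of naphthalene. Total counts per library were 11233709 to 16792306 in naphthalene and 10743842 to 13518183 in control lungs, and 14192 genes had enough counts to be tested.

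The proteasome degrades proteins that carry ubiquitin. Its core particle is a barrel of stacked alpha and beta rings, in which the beta rings hold the proteolytic sites and the alpha rings form the gate. A regulatory particle caps the barrel. The base of this cap holds a ring of ATPases that unfold the substrate, and its lid removes the ubiquitin chain. Other activator rings can take the place of the cap, and dedicated chaperones assemble the core and the base without remaining in the finished particle. When proteasome capacity falls short, the transcription factor NRF1 (Nfe2l1) is known to raise the transcription of most subunit genes together.

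Of the 46 genes, 44 passed the low-count filter. With edgeR's quasi-likelihood test and Benjamini-Hochberg adjustment over all genes, 30 of the 44 were higher in naphthalene lungs, 1 was lower and 13 did not pass the threshold of 0.05. Among all genes tested, 28.7% passed, 14.1% as higher and 14.6% as lower. The 4 naphthalene libraries lay wholly above the 4 control libraries for 25 of the 44 genes and wholly below for 1, where the shares of all tested genes were 13.9% and 14.7%. The choice of the set rests on this contrast, so nothing is read from these shares. The median log2 fold change of the 44 genes was 0.52, and that of all tested genes was 0.01. The differences were moderate, with a range of log2 fold changes of -0.35 to 0.85. Counts by part are a description in the same way. Of the ubiquitous core subunits 13 of 14 passed as higher, and of the measured regulatory particle subunits with a matching symbol 15 of 16. Their medians were 0.60 and 0.63. Among the assembly factors 1 of 7 passed as higher and among the activators 1 of 5, beside 14.1% of all tested genes. Their medians were 0.30 and 0.10. The ranges overlapped between the core, at 0.40 to 0.73, and the assembly factors, at 0.02 to 0.47.

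**Figure D1:**
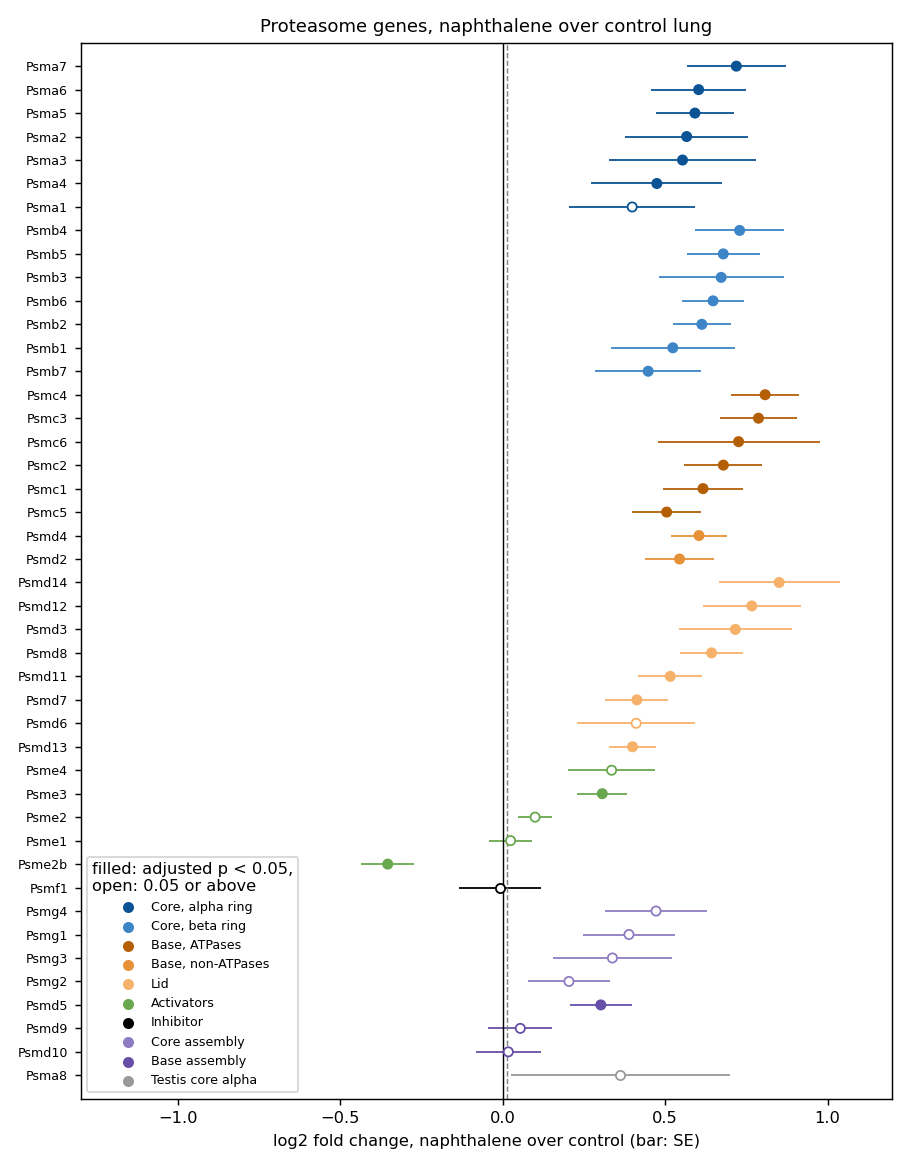
Log2 fold change of each tested proteasome gene, naphthalene over control, on the x axis with its standard error, one gene per row and coloured by class; filled points passed the adjusted p threshold, the solid line is 0 and the dashed line is the median of all tested genes. Core and regulatory particle genes lie between 0.40 and 0.85, and the activators, the inhibitor and the assembly factors lie between -0.35 and 0.47.

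Core subunits of both rings were higher. The 7 alpha genes had a median log2 fold change of 0.57 and 6 passed, and the 7 ubiquitous beta genes had a median of 0.65 and all 7 passed. The summed level of the 14 genes was 1117, 1383, 1758 and 1581 CPM (counts scaled to library size, with TMM factors) in naphthalene libraries 1 to 4, against 869, 962, 1107 and 963 CPM in control libraries 1 to 4. Every naphthalene sum lay above every control sum, but naphthalene library 1 exceeded control library 3 only narrowly. The mean of the sums was 1459 ± 275 CPM in naphthalene lungs and 975 ± 98.2 CPM in control lungs (SD, n = 4 each), a ratio of 1.496.

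The 3 ubiquitous catalytic subunits are Psmb5, which cuts after hydrophobic residues, Psmb6, which cuts after acidic residues, and Psmb7, which cuts after basic residues. Psmb5 was at 36.8, 42.7, 49.9 and 39.7 CPM in naphthalene lungs, against 27.0, 25.6, 23.7 and 29.2 CPM in control lungs. Psmb6 was at 88.9, 98.6, 113 and 106 CPM in naphthalene lungs, against 58.3, 63.4, 71.3 and 66.2 CPM in control lungs. For both genes the groups did not overlap, with log2 fold changes of 0.68 (SE 0.11, edgeR adjusted p = 0.00169) and 0.65 (SE 0.10, edgeR adjusted p = 0.000923). Psmb7 was at 81.2, 92.5, 134 and 101 CPM in naphthalene lungs, against 67.2, 74.4, 82.2 and 75.3 CPM in control lungs. Naphthalene library 1 fell below control library 3 for this gene, and its log2 fold change was 0.45 (SE 0.16, edgeR adjusted p = 0.0356). Its partners in the beta ring ran up to 0.73 for Psmb4, a structural subunit at 131 ± 21.3 CPM in naphthalene lungs and 79.1 ± 6.83 CPM in control lungs (SD, n = 4 each).

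Among 38 members with a promoter in the RefSeq table (build GRCm38.p6, 250 bases before to 50 bases after the annotated start), 3 motifs were searched on both strands: TGACNNNGC, the core of the antioxidant response element that NRF1 and NRF2 can bind, CCAAT, the box bound by NF-Y, and CACGTG, an E-box. TGACNNNGC was present in 6 of the 38 promoters, or 15.8%, and in 15.3% of all 16093 promoters in the table. Its share among promoters of tested genes was 16.8%. In a window of 150 bases before to 50 after the start, it was in 10.5% of the members. The shares there were 11.8% of all promoters and 13.1% of those of tested genes. CCAAT was present in 13, or 34.2%, against 42.3% of all promoters, and CACGTG in 3, or 7.89%, against 9.26% of all promoters. By class, CCAAT was in 6 of 11 core, 4 of 14 regulatory particle, 1 of 5 activator and 1 of 6 assembly factor promoters. The 6 genes with TGACNNNGC were Psmb5, Psmb6, Psmc6, Psmd12, Psmd9 and Psme4, of which the first 4 passed as higher and the last 2 did not. Psma8, Psmb1, Psmb2, Psmb7, Psmc3, Psmd3, Psmd7 and Psmg2 had no promoter there and were not searched. A match is a string of letters in this window and not a measured binding site.

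The promoters of Psmb5 and Psmb6 are shown as catalytic subunits whose promoters hold TGACNNNGC, that of Psme4 as an activator with the same string on the other strand that did not pass the test, and that of Psmd14 as the gene of largest difference, without that string. All are written 5′ to 3′ along the gene, and capitals mark matches of the 3 motifs. The Psmb5 window is chr14:54617946-54618245 (minus strand), the Psmb6 window chr11:70525107-70525406 (plus strand), the Psme4 window chr11:30771525-30771824 (plus strand) and the Psmd14 window chr2:61711444-61711743 (plus strand), all in GRCm38.p6.
Psmb5 promoter: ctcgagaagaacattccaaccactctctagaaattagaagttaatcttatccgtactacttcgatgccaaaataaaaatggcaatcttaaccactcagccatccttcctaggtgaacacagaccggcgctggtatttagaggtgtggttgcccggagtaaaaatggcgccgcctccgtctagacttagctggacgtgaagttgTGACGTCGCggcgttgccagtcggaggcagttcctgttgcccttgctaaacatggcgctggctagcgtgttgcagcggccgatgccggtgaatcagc
Psmb6 promoter: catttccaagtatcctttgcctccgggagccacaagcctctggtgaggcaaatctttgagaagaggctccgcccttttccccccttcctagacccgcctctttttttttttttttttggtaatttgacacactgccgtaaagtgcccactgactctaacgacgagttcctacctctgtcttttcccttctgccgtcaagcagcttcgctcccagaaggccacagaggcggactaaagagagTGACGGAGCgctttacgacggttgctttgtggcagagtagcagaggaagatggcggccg
Psme4 promoter: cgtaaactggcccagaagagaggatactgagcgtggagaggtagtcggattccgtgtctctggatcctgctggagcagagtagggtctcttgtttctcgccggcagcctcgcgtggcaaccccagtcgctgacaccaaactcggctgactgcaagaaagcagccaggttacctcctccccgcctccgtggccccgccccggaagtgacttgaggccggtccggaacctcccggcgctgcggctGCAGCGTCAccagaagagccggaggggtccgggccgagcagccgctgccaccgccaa
Psmd14 promoter: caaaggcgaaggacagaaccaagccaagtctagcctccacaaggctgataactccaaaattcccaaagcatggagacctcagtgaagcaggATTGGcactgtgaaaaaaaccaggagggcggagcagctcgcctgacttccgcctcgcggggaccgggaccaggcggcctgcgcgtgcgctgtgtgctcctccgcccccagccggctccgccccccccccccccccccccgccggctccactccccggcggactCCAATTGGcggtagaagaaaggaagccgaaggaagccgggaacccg
Counted from the annotated start, the string begins at position -47 in the Psmb5 promoter and at position -9 in the Psmb6 promoter, and its reverse complement lies at position -7 in the Psme4 promoter. Psmd14 holds CCAAT 3 times, and 2 of these overlap on opposite strands.

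In the alpha ring Psma7 differed most and Psma1 least. Psma7 was at 104, 132, 145 and 148 CPM in naphthalene lungs, against 70.7, 77.9, 97.5 and 75.1 CPM in control lungs, with a log2 fold change of 0.72 (SE 0.15). Psma5 had 0.59 (SE 0.12) and Psma3 had 0.55 (SE 0.23). Psma1 was at 86.5, 113, 156 and 133 CPM in naphthalene lungs, against 84.5, 87.7, 105 and 92.2 CPM in control lungs. Its groups overlapped, and its log2 fold change of 0.40 (SE 0.19, edgeR adjusted p = 0.0821) did not pass. Psma4, at 0.47, was the member just inside the threshold, with an edgeR adjusted p of 0.0497. The core count depended on single libraries: it was 8 of 14 without naphthalene library 3, without control library 1 or without control library 4, where Psma2, Psma3, Psma4, Psmb1 and Psmb7 no longer passed. The 8 core genes that passed with any 1 library left out were Psma5, Psma6, Psma7, Psmb2, Psmb3, Psmb4, Psmb5 and Psmb6.

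For 14 of the 16 measured regulatory particle genes with a matching symbol, the naphthalene libraries lay wholly above the control libraries. This held for 8 of 14 core genes and for 13.9% of all tested genes. The members were chosen with this contrast known, so these counts are a description. The count of regulatory particle genes that passed as higher stayed between 14 and 16 with any 1 library left out. Their summed level was 1459, 1726, 1906 and 1579 CPM in naphthalene libraries 1 to 4, against 1041, 1083, 1132 and 1053 CPM in control libraries 1 to 4. The means were 1668 ± 193 CPM in naphthalene lungs and 1077 ± 40.4 CPM in control lungs (SD, n = 4 each), a ratio of 1.55. The lowest naphthalene sum lay far above the highest control sum. Psmd1, a large scaffold of the base, was listed at 0 in all 8 libraries and is left out of these sums. It lies on mouse chromosome 1, where 1138 of 1150 protein-coding genes were at 0 in every library, or 99.0%, against 0.399% to 11.5% on the other autosomes. Its level was therefore not measured here.

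All 6 ATPases of the base, Psmc1 to Psmc6, passed as higher, with a median log2 fold change of 0.70 and a ratio of summed CPM of 1.62. Psmc4 was at 77.6, 80.2, 96.3 and 68.2 CPM in naphthalene lungs, against 43.8, 46.2, 46.6 and 47.4 CPM in control lungs. The control libraries lay within a narrow band well below the lowest naphthalene library, and the log2 fold change was 0.81 (SE 0.11, edgeR adjusted p = 0.000378). Psmc5 differed least among the ATPases, with a log2 fold change of 0.50 (SE 0.11), and Psmc1 had 0.62 (SE 0.12). Psmc6 was at 119, 163, 219.7 and 234 CPM in naphthalene lungs, against 96.2, 106, 138 and 105 CPM in control lungs. Its log2 fold change was 0.73, but naphthalene library 1 lay below control library 3 and the SE was 0.25. Psmc6 did not pass without naphthalene library 3, control library 1 or control library 4.

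Psmd2 and Psmd4 are base subunits that are not ATPases and that bind substrates or their shuttles. Psmd2, the docking scaffold, was at 227, 249.7, 243 and 181 CPM in naphthalene lungs, against 161, 152, 149 and 156 CPM in control lungs. Psmd4, a ubiquitin receptor, was at 96.2, 105, 101 and 81.6 CPM in naphthalene lungs, against 65.8, 60.1, 63.1 and 64.0 CPM in control lungs. The groups did not overlap for either gene, with log2 fold changes of 0.54 (SE 0.11) and 0.60 (SE 0.09). Adrm1, another ubiquitin receptor of the cap, whose symbol lies outside the pattern, had a log2 fold change of 0.56 (SE 0.11, edgeR adjusted p = 0.00472). Of the 5 measured parts and assembly genes without a matching symbol, Adrm1 was the only one that passed, and their median was 0.17.

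In the lid 7 of 8 genes with a matching symbol passed. Psmd14, the metalloprotease that cuts the ubiquitin chain off the substrate, had the largest difference of all members. It was at 66.5, 86.6, 116 and 102 CPM in naphthalene lungs, against 46.8, 51.4, 58.9 and 48.1 CPM in control lungs, with a log2 fold change of 0.85 (SE 0.19, edgeR adjusted p = 0.0023). Psmd12, a structural lid subunit, was at 59.9, 83.9, 95.6 and 80.4 CPM in naphthalene lungs, against 44.6, 47.2, 51.9 and 44.1 CPM in control lungs, with 0.77 (SE 0.15). For both genes every naphthalene library was above every control library. Psmd11, the lid subunit that clamps the cap onto the core, had 0.52 (SE 0.10), and Psmd13 had the smallest difference, 0.40 (SE 0.07). Psmd6 had a log2 fold change of 0.41 with a wider spread (SE 0.18, edgeR adjusted p = 0.0626), and was the member just outside the threshold. It was at 58.4, 75.1, 97.7 and 91.0 CPM in naphthalene lungs, against 53.9, 58.1, 68.7 and 61.4 CPM in control lungs. Sem1, a small lid subunit whose symbol lies outside the pattern, was at 63.3, 70, 87 and 99.4 CPM in naphthalene lungs, against 71.4, 72.3, 86.7 and 74.6 CPM in control lungs. Its groups overlapped, and its log2 fold change of 0.07 (SE 0.16, edgeR adjusted p = 0.758) did not pass. Sem1 was named after its value was seen.

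**Figure D2:**
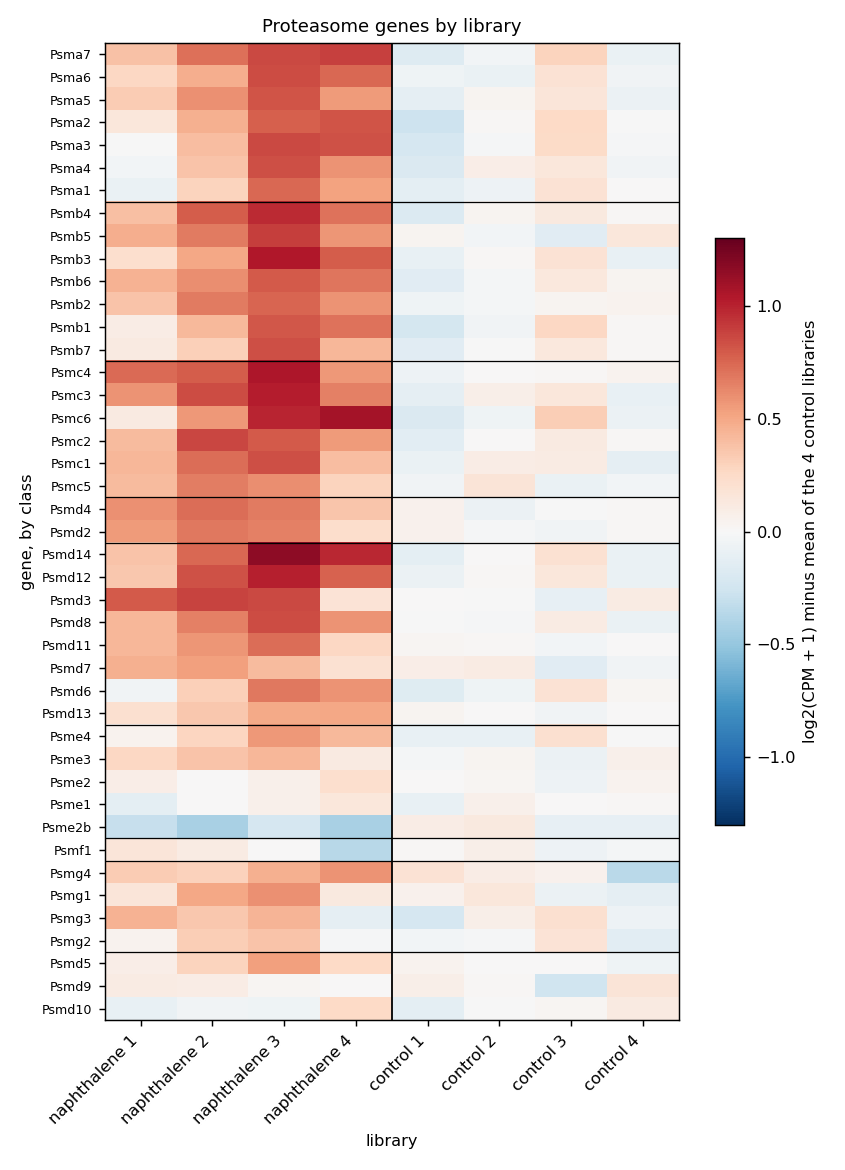
Proteasome genes (rows, grouped by class, Psma8 not drawn) in each library (columns), coloured by log2(CPM + 1) minus the mean of the 4 control libraries. Naphthalene library 3 is darkest over most core and regulatory particle rows and library 1 is palest in the alpha ring, while the activator and assembly rows are paler.

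The activators did not move as one group. Psme1 and Psme2 form the interferon-inducible activator ring. Psme1 was at 68.6, 75.1, 78.5 and 83.0 CPM in naphthalene lungs, against 70.2, 78.5, 75.3 and 75.9 CPM in control lungs. Psme2 was at 42.9, 40.5, 42.3 and 47.1 CPM in naphthalene lungs, against 40.4, 40.9, 38.3 and 41.5 CPM in control lungs. Groups overlapped for both, with log2 fold changes of 0.02 (SE 0.07, edgeR adjusted p = 0.865) and 0.10 (SE 0.05, edgeR adjusted p = 0.425). The sign for Psme1 changed to below 0 under upper quartile scaling.

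Psme3, which forms a nuclear activator ring, was at 49.2, 53.0, 55.1 and 44.2 CPM in naphthalene lungs, against 40.1, 41.8, 38.5 and 42.5 CPM in control lungs. The groups did not overlap, with a log2 fold change of 0.31 (SE 0.08, edgeR adjusted p = 0.0341). The call did not hold without naphthalene library 2 or 3, or without any 1 of the 4 control libraries. Psme4, a large single-chain activator, was at 260.2, 306, 374 and 339 CPM in naphthalene lungs, against 236, 236, 292 and 251 CPM in control lungs. Its groups overlapped, and its log2 fold change of 0.34 (SE 0.13, edgeR adjusted p = 0.0638) did not pass.

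Psme2b was the only member lower in naphthalene lungs in the test. It was at 26.9, 24.5, 28.4 and 24.5 CPM in naphthalene lungs, against 35.5, 36.3, 30.8 and 30.9 CPM in control lungs, with a log2 fold change of -0.35 (SE 0.08, edgeR adjusted p = 0.0257). The groups did not overlap, but the call was lost without naphthalene library 2, control library 1 or control library 2. Psme2b is a near-identical copy of Psme2 and its exons overlap those of 9930111J21Rik1 on the same strand, so its count is uncertain. Psmf1, an inhibitor of the core in vitro, was at 29.5, 28.6, 26.4 and 20.3 CPM in naphthalene lungs, against 26.7, 27.9, 25.2 and 26 CPM in control lungs. Its groups overlapped around a log2 fold change of -0.01 (SE 0.13).

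**Figure D3:**
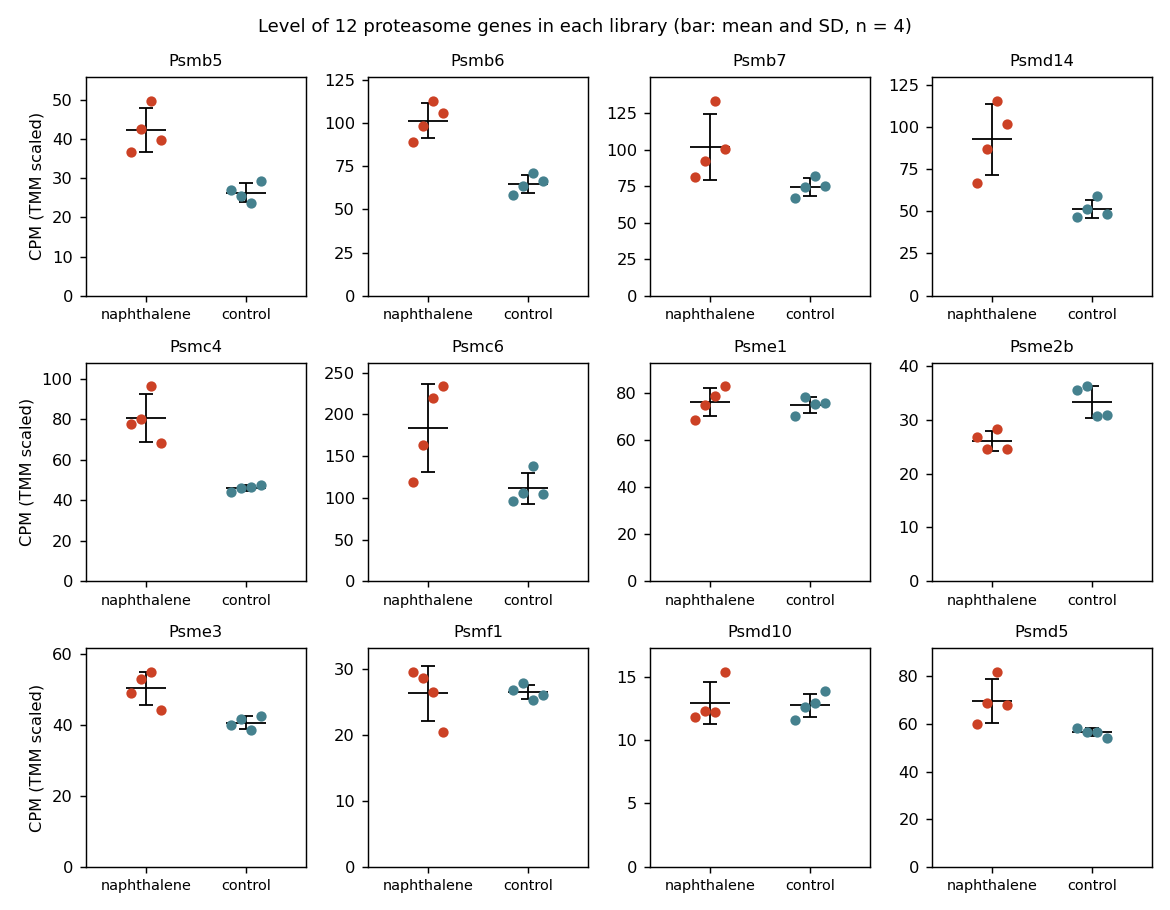
CPM (TMM scaled) of 12 proteasome genes in each library, naphthalene left and control right, with points for libraries and bars for the mean and SD (n = 4). The groups are apart for Psmb5, Psmb6, Psmd14, Psmc4, Psme3, Psme2b and Psmd5, and overlap for Psmb7, Psmc6, Psme1, Psmf1 and Psmd10.

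By median log2 fold change the assembly factors differed less, at 0.30 against 0.60 for core and 0.63 for regulatory particle subunits. The ranges overlapped, with the assembly factors at 0.02 to 0.47 and the genes of both other parts from 0.40 upward. Their summed level was 129.9, 144, 159 and 138 CPM in naphthalene libraries 1 to 4, against 122, 122, 119.7 and 118 CPM in control libraries 1 to 4. The groups did not overlap, and the means were 143 ± 12.4 CPM in naphthalene lungs and 120.3 ± 2 CPM in control lungs (SD, n = 4 each), a ratio of 1.19. Psmd5 alone averaged 69.7 CPM in naphthalene and 56.5 CPM in control lungs, and the ratio for Psmg1 to Psmg4 was 1.26. None of Psmg1 to Psmg4, the chaperones that guide alpha ring assembly, passed, with log2 fold changes of 0.39, 0.20, 0.34 and 0.47. Psmg4 was nevertheless separate between groups, at 6.90, 6.72, 7.64 and 8.42 CPM in naphthalene lungs, against 6.19, 5.73, 5.54 and 3.94 CPM in control lungs (edgeR adjusted p = 0.0674). The group means of Psmg1 to Psmg4 were low, 5.35 to 12.8 CPM, and the part of low counts in their missing calls was not tested. Pomp, the chaperone of beta ring assembly, which lies outside the symbol pattern, had 0.22 (SE 0.13, edgeR adjusted p = 0.203).

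The 3 chaperones of the base split. Psmd5 was at 59.8, 69.0, 82.0 and 67.9 CPM in naphthalene lungs, against 58.3, 56.6, 56.8 and 54.3 CPM in control lungs, with a log2 fold change of 0.30 (SE 0.10, edgeR adjusted p = 0.0469). Its groups were separate by a small gap, and the call did not hold without naphthalene library 2, 3 or 4, or without any 1 of the 4 control libraries. Psmd10 was at 11.8, 12.3, 12.2 and 15.4 CPM in naphthalene lungs, against 11.6, 12.6, 12.9 and 13.8 CPM in control lungs. Psmd10 and Psmd9 had log2 fold changes of 0.02 (SE 0.10) and 0.05 (SE 0.10), and their groups overlapped. The sign for Psmd10 changed to below 0 under upper quartile scaling.

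Both tissue-restricted core genes were scarce. Psma8, the alpha subunit of the testis proteasome, had 16, 11, 18 and 5 counts in naphthalene lungs, against 9, 8, 7 and 12 counts in control lungs, and its groups overlapped. Psmb11, the beta subunit of the thymus, had 1, 0, 3 and 5 counts in naphthalene lungs, against 1, 0, 0 and 0 counts in control lungs, and was not tested. Markers of testis germ cells (Ddx4 and Sycp3) summed to 2.59 ± 1.18 CPM in naphthalene lungs and 3.86 ± 0.589 CPM in control lungs, and those of thymus (Foxn1 and Prss16) to 0.570 ± 0.257 CPM in naphthalene lungs and 0.331 ± 0.207 CPM in control lungs (SD, n = 4 each). Psmc3ip and Psme3ip1, the 2 matched symbols outside the particle, had log2 fold changes of 0.12 and 0.14 and did not pass.

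Per kb of annotated exon, the classes also differed in level. The median CPM per kb was 44.5 in naphthalene and 29.1 in control lungs for the core genes, and 33.5 in naphthalene and 21.4 in control lungs for the regulatory particle genes. It was 31.2 in naphthalene and 30.2 in control lungs for the 5 activators. The assembly factors lay lower, at 8.80 CPM per kb in naphthalene and 7.19 CPM per kb in control lungs. Psma6, an alpha subunit, had the highest level per kb of exon, 82.2 in naphthalene and 54.1 in control lungs, and Psmg3 the lowest of the tested ubiquitous members, 2.64 in naphthalene and 2.10 in control lungs. Per kb of the longest transcript the highest were instead Psmb4 in naphthalene lungs, at 111, and Psma1 in control lungs, at 77.0, with Psma6 at 97.4 in naphthalene and 64.0 in control lungs. The activator median lay above the core median in control lungs only by a small margin, and below it when lengths came from the longest transcript.

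**Figure D4:**
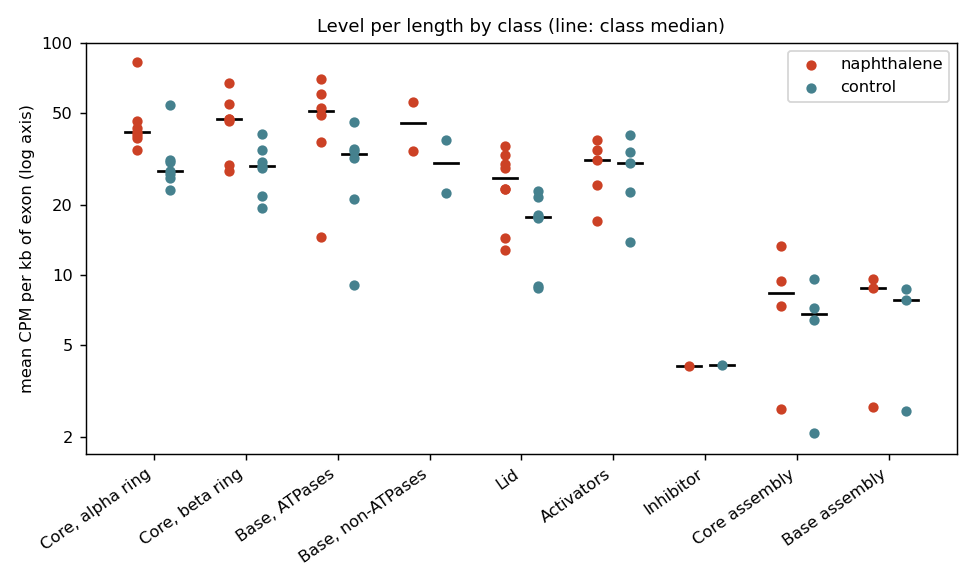
Mean CPM per kb of exon (log axis) of each proteasome gene by class, with naphthalene left and control right in each class and a line at the class median. Core, base and lid medians are higher in naphthalene lungs, and the assembly and inhibitor genes lie lower in both groups.

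A wider list of 76 genes was mixed. It held other genes of the ubiquitin and proteasome system, genes of the NRF1 and NRF2 pathways, and 8 NRF1 or NRF2 targets outside the proteasome. Of 75 found in the table, 72 were tested, 32 were higher, 3 were lower and 37 did not pass, with a median log2 fold change of 0.22. The 32 include all 8 of these targets. Among all tested genes 14.1% passed as higher and 14.6% as lower. The 3 inducible catalytic subunits that replace Psmb5, Psmb6 and Psmb7 in immune cells did not pass as higher. Psmb8, Psmb9 and Psmb10 averaged 34.1, 14 and 31 CPM in naphthalene lungs, against 42.2, 23.2 and 38 CPM in control lungs, and Psmb8 and Psmb9 passed as lower (edgeR adjusted p = 0.0359 and 0.0103). The groups overlapped for Psmb10, which did not pass (edgeR adjusted p = 0.109). The lymphocyte marker lists moved the same way: 5 of 5 T cell, 4 of 4 B cell and 3 of 3 NK cell markers passed as lower. Summed T cell markers were at 12.1 ± 2.14 CPM in naphthalene lungs and 29.8 ± 1.62 CPM in control lungs, and summed B cell markers at 40.6 ± 8.64 CPM in naphthalene lungs and 103 ± 15.7 CPM in control lungs (SD, n = 4 each). The part of lymphocyte RNA in the values of Psmb8 and Psmb9 was not tested.

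Nfe2l1, which encodes NRF1, was at 306, 265, 244 and 251 CPM in naphthalene lungs, against 272, 264, 252 and 239 CPM in control lungs. Its groups overlapped, with a log2 fold change of 0.05 (SE 0.08, edgeR adjusted p = 0.712). Ddi2, the protease that releases active NRF1, had a log2 fold change of -0.09 (SE 0.15). Of the 8 genes listed for NRF1 processing, 1 passed as higher, a share near the 14.1% of all tested genes. It was Vcp, the ATPase that extracts proteins from membranes and complexes, with 0.52 (SE 0.11). Vcp was named after its value was seen. NRF1 is regulated largely through processing and turnover of the protein, which RNA levels do not show. Nfe2l2, which encodes the oxidative stress factor NRF2, had 0.28 (SE 0.10, edgeR adjusted p = 0.0566). Of the genes outside the proteasome listed as targets of NRF1 or NRF2, 8 of 8 passed as higher, against 14.1% of all tested genes. Their median was 1.39. They were chosen with earlier results known and are counted in the list of 76 above. Among them was Hmox1, the haem-degrading oxygenase, with 1.86 (SE 0.20), named after its value was seen. The part of NRF1 or NRF2 in the values of the proteasome genes and of these targets was not tested.

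Genes that bring substrates to the particle were higher in part. Of 9 shuttle genes 6 passed, with Sqstm1, an autophagy receptor that binds ubiquitin chains, at 433, 548, 655 and 397 CPM in naphthalene lungs, against 259, 288, 279.5 and 279 CPM in control lungs. Its groups were far apart, with a log2 fold change of 0.88 (SE 0.17, edgeR adjusted p = 0.00135). Usp14, a deubiquitinase of the cap, had 0.49 (SE 0.17, edgeR adjusted p = 0.0262) with overlapping groups. The deubiquitinase Uchl5 was listed at 0 in all libraries and, like Psmd1, lies on chromosome 1. Ubb, a polyubiquitin gene, had 0.04 (SE 0.08) and did not pass. Among 24 tested ubiquitin-conjugating enzymes 7 passed as higher and 1 as lower, and 4 of 5 listed VCP cofactors passed as higher. Of all tested genes 14.1% passed as higher and 14.6% as lower. The shuttle, conjugating enzyme and cofactor lists were chosen with earlier results known, so nothing is read from their counts.

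Single libraries held many of the extremes within each group. Naphthalene library 3 was the highest of its group for 27 of the 44 genes and the lowest for 0, and naphthalene library 1 was the lowest for 26 and the highest for 3. Naphthalene library 4 was the highest for 8 genes and the lowest for 15. In the control group library 3 was the highest for 23 genes but the lowest for 12, and library 1 was the lowest for 21 and the highest for 6. The median coefficient of variation was 14.6% in naphthalene and 8.63% in control lungs for the members, and 15.8% in naphthalene and 11.1% in control lungs for all tested genes. These deviations were related to transcript GC content and to the level of the gene, to a different degree in each library. Over the 44 genes, Spearman's rho between a gene's deviation from its group mean and its GC content was 0.40, 0.34, -0.44 and -0.27 in naphthalene libraries 1 to 4, and 0.35, 0.21, -0.40 and 0.07 in control libraries 1 to 4. Over 13581 genes with a GC value it was 0.56, 0.39, -0.30 and -0.55 in naphthalene libraries 1 to 4, and 0.39, 0.14, -0.58 and 0.30 in control libraries 1 to 4. With the log2 of the mean control CPM, taken as the level, rho over the 44 genes was -0.59, -0.23, 0.37 and 0.42 in naphthalene libraries 1 to 4, and -0.51, -0.32, 0.55 and -0.11 in control libraries 1 to 4. Over all 14192 tested genes the rho with level ran between -0.19 and 0.22. The rho between the fold change and GC content was 0.15 over the members, and that between the fold change and the control level was 0.37 over the members and 0.05 over all tested genes. These are correlations across genes of the same libraries, the control level shares its libraries with the fold change and the control deviations, and none carries a test. With a correction for GC content added after seeing the data, 33 members were higher and 1 lower, with all 14 core and all 16 measured regulatory particle genes among the 33.

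**Figure D5:**
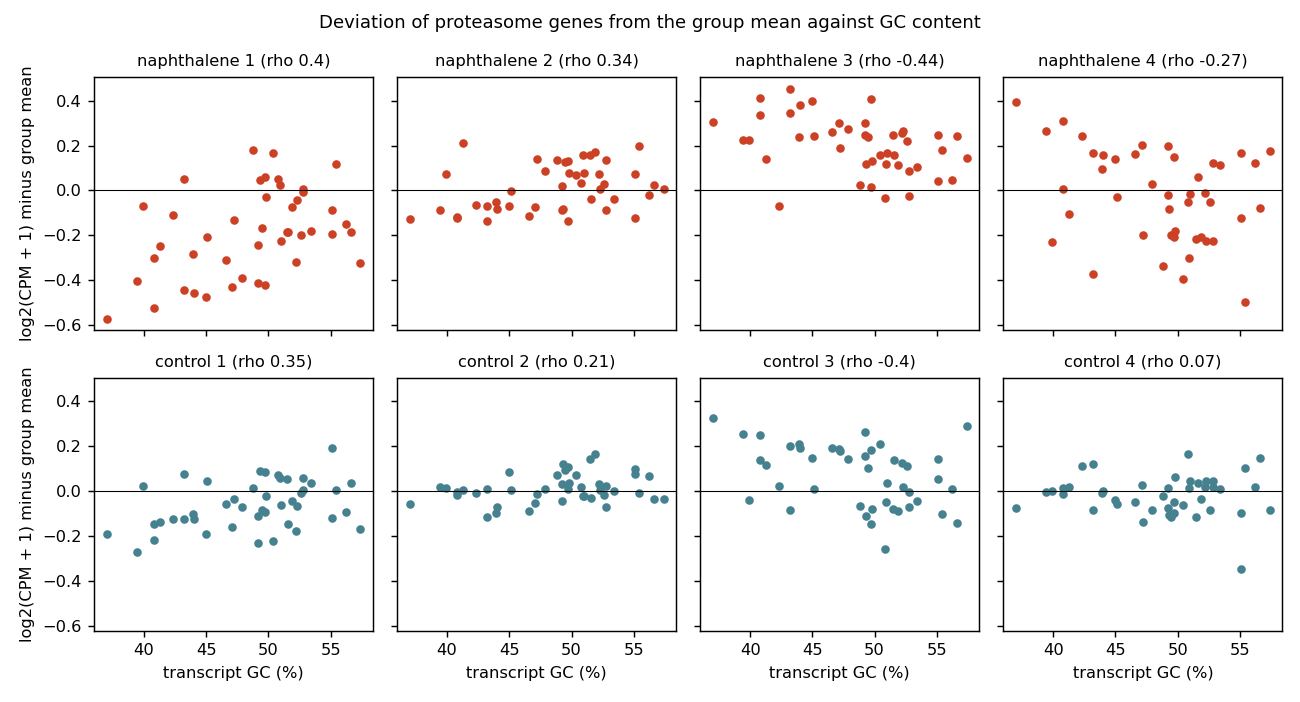
Deviation of each proteasome gene from its group mean, in log2(CPM + 1), against the GC content of its transcripts in percent, with one panel per library (naphthalene above, control below). Genes of low GC content lie above those of high GC content in naphthalene libraries 3 and 4 and control library 3, and below them in naphthalene libraries 1 and 2 and control libraries 1 and 2.

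The RNA of cell type markers differed between groups as well. In bulk RNA fewer cells of a type and less RNA per cell cannot be told apart. Of the club cell markers 5 of 5 passed as lower, with sums of 998 to 2691 CPM in naphthalene lungs and 4843 to 9832 CPM in control lungs. Of the ciliated cell markers 4 of 5 passed as lower, with sums of 64.2 to 153 CPM in naphthalene lungs and 426 to 710.3 CPM in control lungs. Of 4 neutrophil markers 3 were tested and 1 passed as higher, and Cxcr2, on chromosome 1, was at 0. Their sums were 155, 256, 432 and 441 CPM in naphthalene libraries 1 to 4, against 59.3, 41.6, 336 and 68.2 CPM in control libraries 1 to 4. The libraries with the highest neutrophil sums, naphthalene 3 and 4 and control 3, also had the highest core sums of their groups. Alveolar macrophage marker sums were highest in the same libraries, at 341, 463, 791 and 913 CPM in naphthalene libraries 1 to 4. In control libraries 1 to 4 they were 316, 480, 633 and 498 CPM, and 1 of 3 tested macrophage markers passed as lower. The same libraries were those with a negative rho between deviation and GC content over all genes, -0.30, -0.55 and -0.58. The part of these traits in the core sums was not tested. Regulatory particle and assembly factor sums did not share the order of the core sums. Regulatory particle sums were 1726 CPM in naphthalene library 2 and 1579 CPM in naphthalene library 4, although control library 3 was again the highest control. Assembly factor sums were 144 CPM in naphthalene library 2 and 138 CPM in naphthalene library 4, and control library 3 lay below control libraries 1 and 2. Alveolar type 2 markers, of the surfactant-secreting cells, had 2 of 5 passing as higher and summed to 10720 ± 1064 CPM in naphthalene lungs and 9809 ± 844 CPM in control lungs (SD, n = 4 each). The part of cell makeup in the proteasome values was not tested.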

How the data were processed

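Stranded libraries were made from total RNA of lung lobes of 4 naphthalene-injected and 4 control mice, per the labels' protocols. The values are raw counts per gene symbol, whole numbers as deposited by the authors. Per the submitters' processing notes, which give no role or order, the build was mm39 and the tools were edgeR 4.2.1, featureCounts 2.0.6, HISAT2 2.2.1 and Trim Galore 0.6.7. No source used here states the annotation, the strand setting of the counting or how multi-mapping reads were treated. Counts are therefore uncertain for members with named pseudogenes (Psmb5, Psmb6 and Psmb7) or near-identical copies (Psme2 and Psme2b), and for those whose exons overlap another gene on the opposite strand (Psme1, Psmd9, Psmc3, Psma4, Psma5, Psmb7, Psmd13 and Psmd3) or on the same strand (Psmg3, Psmb5 and Psme2b).

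The table was tested in R 4.3.3 with edgeR 4.0.16 on the counts as deposited, with TMM scaling, filterByExpr (minimum count 10, minimum total 15), the quasi-likelihood test on group alone, and Benjamini-Hochberg adjustment over 14192 genes with 0.05 as the threshold. CPM values use TMM scaling. The SE of a log2 fold change comes from the group SDs of log2 CPM (prior count 2). The floor of 3 counts in a library corresponds to 0.179 to 0.275 CPM, and counting error is the only error it covers. The labels give no batch, 0 columns belonged to other samples and 0 rows named no gene. The labels give as many mice as libraries, so n counts mice.

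The 12 pairs of libraries within groups had chi-square values of 5.57 to 48.5 per degree of freedom, above sampling noise, so each was counted once. Exon lengths, GC content and gene overlaps came from GENCODE M21, and promoters from RefSeq, both on GRCm38, whereas the counts were made on mm39. Members were matched by symbol, 46 of 46 to a transcript length and 38 of 46 to a promoter. The procedure was tested on simulated data. Alternatives were upper quartile and RLE scaling, testing without the filter, a filter that asks for 1 CPM in 4 libraries, removal of 21 mitochondrial and haemoglobin genes, a replicate block, each library left out, control 3 and naphthalene 1 left out, limma 3.58.1 voom with and without quality weights, and DESeq2 1.42.0. A GC correction was added after seeing the data.

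The members, classes and lists were chosen with earlier results of these data known. Named genes were listed catalytic, receptor, lid and ATPase subunits, all activators and assembly factors, the largest and smallest difference of each class, every member that did not pass and those next to the threshold; others are said to be named after their values were seen. The result for 1 listed gene is not reported here.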

Additional observations from a re-analysis of the deposited data

Results flagged for a closer look

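In each group of 4 libraries, the gap between the highest or lowest value and its nearest neighbour was compared with the range of the group for every member with counts and the named genes outside the set, 132 groups of values in all. Chance alone flags about 1 in 20 such groups, and 4 stood out. Psmd10 was at 15.4 CPM in naphthalene library 4, against 11.8 to 12.3 CPM in the other naphthalene libraries. Psmd3 was at 49.4 CPM in naphthalene library 4, against 75.9 to 80.6 CPM in the other naphthalene libraries. Psma6 was at 76.2 CPM in control library 3, against 62.6 to 64.4 CPM in the other control libraries. Psmb11 was at 0.0896 CPM in control library 1, which is 1 count, against 0 in the other control libraries.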

How the results depend on the processing

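Of the 30 members called higher, 22 were called under every alternative, 8 of the core and 14 of the regulatory particle. Over the whole set, 28 to 36 members were higher under the settings that keep all libraries, with 36 under voom with quality weights, which called 3186 higher and 3317 lower genes in all. With 1 library left out the counts were 22 to 34 members higher, 0 to 1 lower, 8 to 14 in the core, 0 to 2 activators and 0 to 2 assembly factors. Activators higher were 0 with no filter, and 2 under voom with quality weights, DESeq2, the GC correction and the GC correction with replicate block. Assembly factors higher were 0 under upper quartile scaling, no filter, voom and the replicate block, and 4 under voom with quality weights, where the activator median was 0.0304. Deviations of libraries with the same replicate number had correlations of 0.287, 0.0332, 0.185 and -0.0934 for numbers 1 to 4. Not every library correlated best with its own number. These deviations are also related to GC content in each library, so the correlations cannot decide whether the numbers pair the libraries. With the replicate block 31 members were higher and 1 lower, with Psmd5 and Psme3 lost and Psma1, Psmd6 and Psme4 gained. Per kb of the longest transcript, control medians were 44.7 CPM for the core, 31.7 for the regulatory particle, 39.0 for the activators and 8.90 for the assembly factors. Signs changed for genes near 0. The log2 fold change of Psme1 was -0.0051 with upper quartile scaling, -0.0013 with quality weights and -0.0184 to 0.0729 with 1 library left out. That of Psmd10 was -0.0116 with upper quartile scaling, -0.00042 with voom, -0.0337 with quality weights, -0.0169 with the GC correction, -0.0153 with the GC correction and replicate block, and -0.0741 to 0.0585 with 1 library left out. That of Psmf1 was 0.0448 with quality weights and -0.0692 to 0.0939 with 1 library left out. With control 3 and naphthalene 1 left out, Psmd9 was at -0.0457 and Nfe2l1 at -0.028. With 1 library left out, Psmd9 was at -0.0292 to 0.113, Nfe2l1 at -0.0185 to 0.0933, Psmc3ip at -0.0117 to 0.233, Ubb at -0.019 to 0.103 and Ddi2 at -0.181 to 0.0058. The cause of these changes was not tested. Psmb11 and Psma8 were limited by depth, with at most 5 and 18 counts in a library.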

Other observations

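Among the other ubiquitin and redox genes of the lists, Ube2h, a ubiquitin-conjugating enzyme, was the only conjugating enzyme called lower, at 103 ± 13.5 CPM in naphthalene lungs and 133 ± 3.41 CPM in control lungs (SD, n = 4 each), with a log2 fold change of -0.37 (SE 0.10, edgeR adjusted p = 0.0181). Keap1, the adaptor that targets NRF2 for degradation, had a log2 fold change of 0.40 (SE 0.14, edgeR adjusted p = 0.0321) with overlapping groups. Slc7a11, a cystine transporter, was at 40.1, 42.8, 84.3 and 87.4 CPM in naphthalene lungs, against 6.19, 7.18, 10.9 and 8.59 CPM in control lungs. Srxn1, which repairs oxidised peroxiredoxins, was at 82.4, 119.6, 177 and 68.6 CPM in naphthalene lungs, against 26.7, 25.0, 28.9 and 29.0 CPM in control lungs. Groups did not overlap for either. These genes were named after their values were seen.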
